A study of Arabidopsis thaliana with 6 samples.

Results

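ATH1 is a homeodomain protein of the BELL class that acts in the shoot apex of *Arabidopsis*. Among the 629 genes listed by the authors as candidate ATH1 targets, 116 had an ATH1-GFP site that lay in their own window and in no other listed window, and these 116 genes are described here. A site was taken as the bases covered by a deposited peak in all 3 ATH1-GFP libraries, where no wild-type library had a peak touching them. The window of a gene is the interval given in the target list, which runs from upstream to downstream of the coding sequence. Sites under several listed windows were left out because such a site cannot be given to 1 gene, and 14 further genes that met the same criteria, among them *BOP1* and *BOP2*, were set aside by name.

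The ChIP-seq libraries came from 2 groups of 3 biological replicates. In the ATH1-GFP group, the plants were *ath1-3* mutants carrying *pATH1:ATH1-GFP*, in which the *ATH1* promoter drives ATH1 fused to GFP. All 3 libraries derive from the same transformant, which holds the transgene once and no longer shows the mutant phenotype. The wild-type plants had no GFP and no *ath1-3* mutation, so their peaks show what the beads with anti-GFP antibody brought down without the tagged protein. Shoots from which leaves and roots had been taken off were used in both groups. The sample labels call the wild type Landsberg-erecta, whereas the series description and the methods name Col, and the labels give longer days and younger seedlings than the methods. Which of these holds could not be settled from the files.

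BELL proteins, to which ATH1 belongs, bind DNA as partners of KNOX homeodomain proteins, and this partnership is known for its part in keeping the shoot meristem and in setting the boundaries of organs. ATH1 itself is known for holding back the growth of the stem below the meristem in rosette plants. A peak in ChIP-seq marks a stretch of chromatin that was enriched with the precipitated protein, and says nothing by itself of whether the nearby gene is switched on or off. No transcript was measured in these libraries.

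In total, 743 regions were covered in each of the 3 ATH1-GFP libraries, and 320 of them (43.1%) touched no wild-type peak. Of these free regions, 119 belonged to the 116 member genes, 14 to the genes set aside by name, 153 to several listed windows and 34 to no listed window. Including the genes set aside, 130 of the 629 listed genes (20.7%) had a free region of their own. In 300 listed genes the only free regions were shared with another listed window, and in 199 there was none. *WRKY33*, *CYP707A3* and *HDA2* were the 3 members with a pair of own regions. The ATH1-GFP libraries held 1634, 1268 and 1029 peaks from 10451892, 10194418 and 15584829 tags left after removal of duplicates (replicates 1, 2 and 3), and the wild-type libraries held between 361 and 688 peaks from 3450182 to 13518524 tags. Since members were chosen by the presence of peaks, the same peaks whose fold enrichment is reported, the values that follow are a description and no test was run on them.

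The value of a member is the fold enrichment given by MACS, which sets the height of a peak at its summit against the background around it in that library. Across the 116 members, the median stood at 2.65 in ATH1-GFP replicate 1, 2.48 in replicate 2 and 1.99 in replicate 3. The mean over the 3 libraries ranged from 1.78 to 5.06, with a median of 2.34 and quartiles of 2.12 and 2.83. Most members thus stood little above background, and the list had a short tail of strong sites: 101 members had a mean above 2, 24 above 3, 6 above 4 and 1 above 5. In every single library, 57 members exceeded 2 and 7 exceeded 3. All values below are given in the order of replicates 1, 2 and 3, and errors are the SD over these 3 libraries.

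The strongest member was *APT3*, which encodes an adenine phosphoribosyltransferase, an enzyme of adenine salvage. It reached 5.61-, 5.52- and 4.04-fold in the ATH1-GFP libraries (mean 5.06 ± 0.880, n = 3), at chr4:11883682-11884205 of TAIR10. Replicates 1 and 2 lay close together and replicate 3 lay lower. Next was AT3G16180, a nitrate transporter by its RefSeq synonyms, with values of 5.91, 4.68 and 3.91 (mean 4.83 ± 1.01) at chr3:5483018-5483480. This member had the widest spread between libraries of all 116. A protein kinase gene, AT3G57120, followed with 4.87, 4.70 and 3.65 (mean 4.41 ± 0.661) at chr3:21141400-21141877. It is the neighbor of *BOP1*, whose own region lay 2781 nt away and had a mean of 3.10 ± 0.611, so that the higher value was that of the kinase gene.

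*CESA6*, a catalytic subunit of the cellulose synthase of primary walls, had 4.70, 4.66 and 3.66 (mean 4.34 ± 0.590) at chr5:25879254-25879722. Its window also held a peak of 1 wild-type library, at 6286 nt from the ATH1-GFP region, and it was the only one of the 25 highest members with a wild-type peak in its window. For *mMDH2*, a mitochondrial malate dehydrogenase, the values were 4.63, 4.57 and 3.08 (mean 4.09 ± 0.881) at chr3:5058175-5058658. *ATBET12*, which encodes a SNARE protein of vesicle traffic, had 4.77, 4.23 and 3.02 (mean 4.01 ± 0.896) at chr4:8311984-8312439. These 6 members made up the whole group with a mean above 4, and in each of them replicate 3 was the lowest library.

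**Figure D1:**
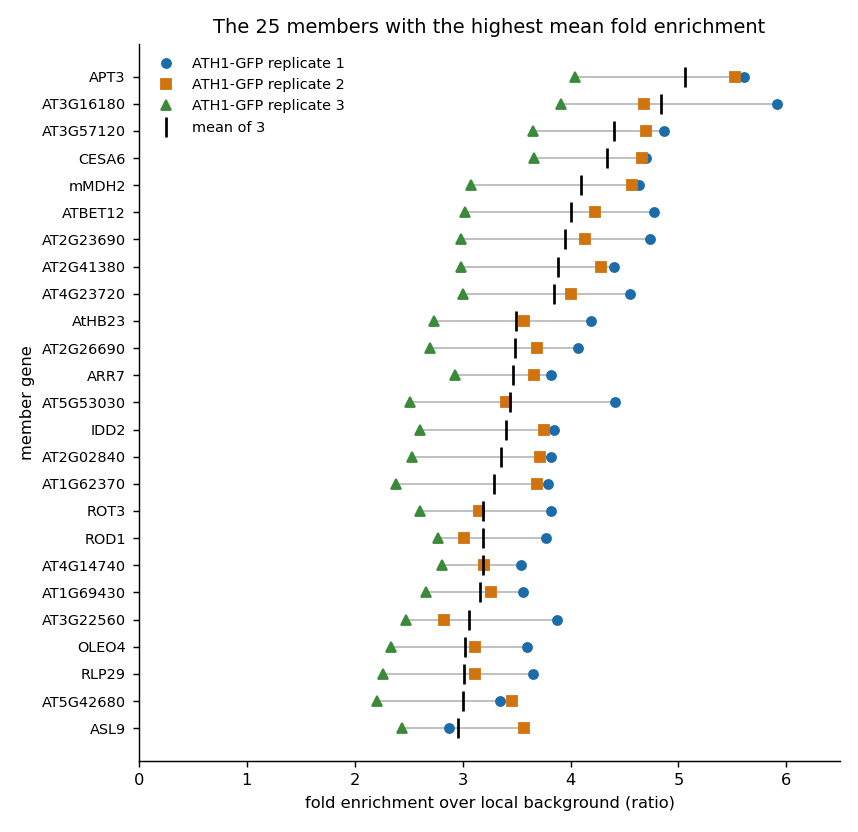
The 25 member genes with the highest mean fold enrichment run down the vertical axis, and the horizontal axis gives fold enrichment over local background (ratio) in each of the 3 ATH1-GFP libraries, with a black bar at the mean and a grey line over the range. Replicate 3 is the lowest library in all 25, and the means run between 5.06 in *APT3* and 2.96 in *ASL9*.

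The following 19 members by rank combined genes of known regulators with genes of little known function. AT2G23690, a gene without a description in the list, had 4.73, 4.13 and 2.98, and AT2G41380, a putative methyltransferase, had 4.40, 4.28 and 2.98. AT4G23720, of unknown function, had 4.55, 4.0 and 3.0, with its region centered just outside its window. The nitrate transporter family gene AT2G26690 (NPF6.2) had 4.07, 3.69 and 2.70. In all 4, replicate 1 was the highest library and replicate 3 the lowest. AT5G53030 (4.41, 3.40 and 2.51) and AT2G02840 (3.82, 3.72 and 2.53) also lacked a description. *ROD1*, which encodes an enzyme of lipid synthesis that feeds oleate into desaturation, had 3.77, 3.01 and 2.78. The values of these genes overlapped across libraries, as did those of the genes ranked below them. AT4G14740, with a pleckstrin homology-like region, had 3.54, 3.20 and 2.81, AT1G69430 had 3.56, 3.26 and 2.66, and AT3G22560, a putative acyltransferase, had 3.88, 2.83 and 2.47. *OLEO4*, an oleosin of seed oil bodies, had 3.60, 3.12 and 2.34 and AT5G42680 had 3.35, 3.46 and 2.21. Of the 25 highest members, 14 were on none of the role lists described next, and all 25 had the summits of the 3 libraries inside the shared region, at most 98 nt apart.

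Genes for transcription factors, pooled over 5 lists, were the largest group on the role lists, and 57 members were on no list. Over 5 lists of such genes, 24 of 76 listed genes (31.6%) were members, against 18.9% (116 of 615) of all listed genes, with the genes set aside by name left out of both counts. Of the 24, 2 (8.33%) had a mean above 3, against 22 of the 92 other members (23.9%). Several of the genes set aside also encode transcription factors, and 6 of the 14 regions set aside (42.9%) had a mean above 3, so that these shares hold for the members and not for all transcription factor genes of the list. The lists and members were chosen with these peaks known, and these shares were not tested. The counts of members per list given below stand beside the same share of 18.9% and were not tested either.

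Homeodomain genes contributed 5 members of 10 listed. *AtHB23*, which encodes a factor with a leucine zipper next to the homeodomain (HD-ZIP), had 4.19, 3.57 and 2.74 (mean 3.50 ± 0.726) at chr1:9354870-9355267. *HB25*, for a zinc finger homeodomain protein, had 3.01, 2.49 and 2.00 (mean 2.50 ± 0.507), and *HB-12*, an HD-ZIP gene known for its response to water deficit and abscisic acid, had 2.78, 2.60 and 1.75 (mean 2.38 ± 0.548). The values of these last 2 overlapped across libraries. *PHB*, the HD-ZIP III gene known for specifying the adaxial side of leaves, had 2.34, 2.17 and 1.74 (mean 2.08 ± 0.313) and *HB16*, another HD-ZIP gene, had 2.11, 2.04 and 1.95 (mean 2.04 ± 0.0802). *AtHB23* was thus the only homeodomain gene among the 10 highest members, and its lowest library exceeded every library of *PHB* and *HB16*.

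Among 12 listed genes of the AP2, MADS and LOB domain families that act in meristems and flowers, 2 were members. *ASL9*, a LOB domain gene also named *LBD3*, had 2.87, 3.57 and 2.44 (mean 2.96 ± 0.574). *AIL6*, also named *PLETHORA 3*, is known for maintaining meristems and starting flowers and had 3.43, 2.29 and 2.38 (mean 2.70 ± 0.636). The highest library was thus replicate 2 in *ASL9* and replicate 1 in *AIL6*. Of 9 listed C2H2 zinc finger genes, 4 were members. The INDETERMINATE DOMAIN gene *IDD2* had 3.85, 3.76 and 2.61 (mean 3.40 ± 0.692) at chr3:18842991-18843442, and its relative *IDD5* had 3.07, 2.83 and 2.34 (mean 2.75 ± 0.371). Members of this family are known as partners of GRAS proteins. *ZFP8*, a regulator of trichome initiation, had 2.36, 2.46 and 2.16 (mean 2.33 ± 0.150) and *ZFP4* had 2.34, 2.57 and 1.79 (mean 2.24 ± 0.400).

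A broad list of other DNA-binding families gave 8 members of 35, and their means were low, between 1.83 and 2.33. The highest were *GL3*, a bHLH gene of trichome formation, with 2.46, 2.54 and 1.98, and *COL4*, a *CONSTANS*-like gene, with 2.26, 2.63 and 1.98. The bHLH gene AT3G20640 had 2.32, 2.03 and 2.12. *TIP*, a NAC gene whose product interacts with a viral coat protein, had 1.89, 2.57 and 1.80, and *WRKY33*, known for its part in resistance to fungi, had 1.97, 2.42 and 1.84 at the stronger of its own regions. In these 2 genes replicate 2 exceeded the other 2 libraries, but the summit of its peak lay outside the region. For *WRKY33* the replicate 2 summit was past the end of the window, and the replicate 1 summit was outside the region too. These values therefore do not compare the libraries at 1 site. *TCP9*, of the TCP family of growth regulators, had 2.11, 1.96 and 1.94, and *FBH3*, a bHLH activator of *CONSTANS*, had 1.95, 1.92 and 1.81. The GRAS gene AT5G66770 had 1.93, 1.82 and 1.76 and was the second lowest of all members. Of the ERF and DREB genes, 5 of 10 were members, with means between 1.87 and 2.34. *ERF5* had 2.79, 2.41 and 1.82, AT2G44940 had 2.90, 2.19 and 1.70, *ERF11* had 2.44, 2.08 and 1.85 and AT4G32800 had 2.52, 1.84 and 1.72. All 4 were lowest in replicate 3, although the replicate 1 and 2 summits of AT2G44940 lay outside its region. *ERF104*, at the bottom of this family, is described with the limits of the rule.

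*TOPLESS* (*TPL*) and *TPR1*, which encode corepressors recruited by many plant transcription factors, were members out of 3 listed. *TPL* had 2.56, 2.29 and 2.06 (mean 2.30 ± 0.249), and *TPR1* had 2.26, 2.20 and 1.85 (mean 2.10 ± 0.222). Their values overlapped.

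Cytokinin genes gave 3 members of 5 listed. *ARR7*, a type-A response regulator that dampens cytokinin signaling, had 3.82, 3.66 and 2.93 (mean 3.47 ± 0.477) at chr1:6579196-6579698, and its 3 summits lay within 11 nt. *CKX7*, a cytokinin oxidase that degrades the hormone, had 2.20, 2.60 and 1.91 (mean 2.24 ± 0.348), and *PUP14*, which imports cytokinins into the cell, had 2.21, 2.28 and 1.81 (mean 2.10 ± 0.254). All libraries of *ARR7* exceeded all libraries of the other two genes. For brassinosteroids and strigolactones, 3 of 5 listed genes were members. *ROT3* (*CYP90C1*), a hydroxylase of brassinosteroid synthesis known for its effect on leaf length, had 3.82, 3.15 and 2.61 (mean 3.19 ± 0.606). AT2G29970 (*SMXL7*), a repressor of strigolactone responses, had 3.11, 3.15 and 2.21 (mean 2.82 ± 0.532), and *SMT2*, a sterol methyltransferase, had 3.17, 2.58 and 2.10 (mean 2.62 ± 0.540). The 3 genes overlapped across libraries, although *ROT3* exceeded *SMT2* within each library, and all 3 means were above the median of the members.

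Auxin genes gave 2 members of 11 listed after the genes set aside by name. *ABCB1*, an auxin efflux transporter, had 3.01, 2.54 and 2.15 (mean 2.57 ± 0.431), and AT1G67900, of the NPH3 family of phototropic responses, had 2.46, 2.67 and 1.92 (mean 2.35 ± 0.390). Jasmonate, ethylene and abscisic acid genes gave 6 of 20, counting *ERF5*, *ERF11* and *ERF104* again. The jasmonate synthesis genes *OPCL1* (2.35, 2.32 and 1.71) and *LOX4* (2.00, 1.88 and 1.68) were low. The summits of replicates 1 and 2 lay outside the region in *OPCL1*, and those of every library did in *LOX4*. Both windows also held peaks of 2 wild-type libraries. *CYP707A3*, which breaks down abscisic acid, had 2.10, 2.08 and 1.79 at its stronger region. All 6 members of this list had means below the median of all members, although *ERF5* (2.339) was almost at that median (2.344).

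Receptor kinases and receptor-like proteins gave 4 members of 21, headed by AT3G57120. *RLP29*, a receptor-like protein, had 3.66, 3.12 and 2.27 (mean 3.01 ± 0.700). *ERL1*, a relative of *ERECTA* that acts in stem growth and the spacing of stomata, had 3.21, 2.57 and 2.12 (mean 2.63 ± 0.549), and *BAM1*, a relative of *CLAVATA1* in meristem signaling, had 2.35, 2.32 and 2.06 (mean 2.24 ± 0.159). None of the 9 listed genes for small signaling peptides was a member: 6 had only shared regions and 3 had no free region. Over all listed genes the share of members was 18.9%, and the count in this short list was not tested against it. Calcium signaling gave 1 of 12, *CPK32*, a calcium-dependent protein kinase, with 1.98, 2.03 and 1.93. This was the smallest spread of any member (SD 0.0471).

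Membrane transporters gave 9 members of 19. Besides the nitrate transporter family genes AT3G16180 and AT2G26690 and the hormone transporters *ABCB1* and *PUP14*, these were *SULTR3;1*, a sulfate transporter (3.63, 2.57 and 2.25), and the amino acid permease genes *AAP7* (2.68, 2.63 and 2.17) and *AAP1* (2.76, 2.66 and 1.89). *AAP7* and *AAP1* differed by less than the spread between their libraries. The mitochondrial succinate-fumarate carrier gene *mSFC1* had 2.29, 1.83 and 1.81, and *PEN3*, an ABC transporter of pathogen defense, had 1.70, 1.90 and 1.73, the lowest mean of all members (1.78 ± 0.108). No summit of *PEN3* lay in its region, and its window also held peaks of 2 wild-type libraries. Transporters therefore held both the second highest and the lowest member.

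Cell wall genes gave 3 of 26, with *CESA6* far above *FLA17* (2.29, 2.20 and 1.98) and *AGP20* (2.03, 2.20 and 1.97), both arabinogalactan proteins of the cell surface. Ubiquitin ligase genes gave 3 of 23. The RING gene AT1G62370 had 3.79, 3.69 and 2.38 (mean 3.29 ± 0.788), AT5G08139, also a RING gene, had 2.83, 2.37 and 2.19, and AT4G19700 (*BOI*) had 2.20, 2.37 and 2.06. The region of AT5G08139, of 1028 nt, was the longest of all members. The list of cell cycle, chromatin and small RNA genes gave 3 of 9. *AGO7*, the Argonaute of trans-acting small interfering RNAs that pattern leaves, had 2.56, 2.50 and 2.35 (mean 2.47 ± 0.107), with closely matching libraries. *CYCD3;3*, a D-type cyclin, had 2.15, 2.23 and 1.74, and the histone deacetylase gene *HDA2* had 2.05, 1.95 and 1.72. No summit of *HDA2* lay in the region, so these values belong to summits outside it. The remaining list, of C2 domain proteins, gave 1 of 4, AT3G17980 (named C2 in RefSeq), with 2.71, 2.86 and 1.85.

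**Figure D2:**
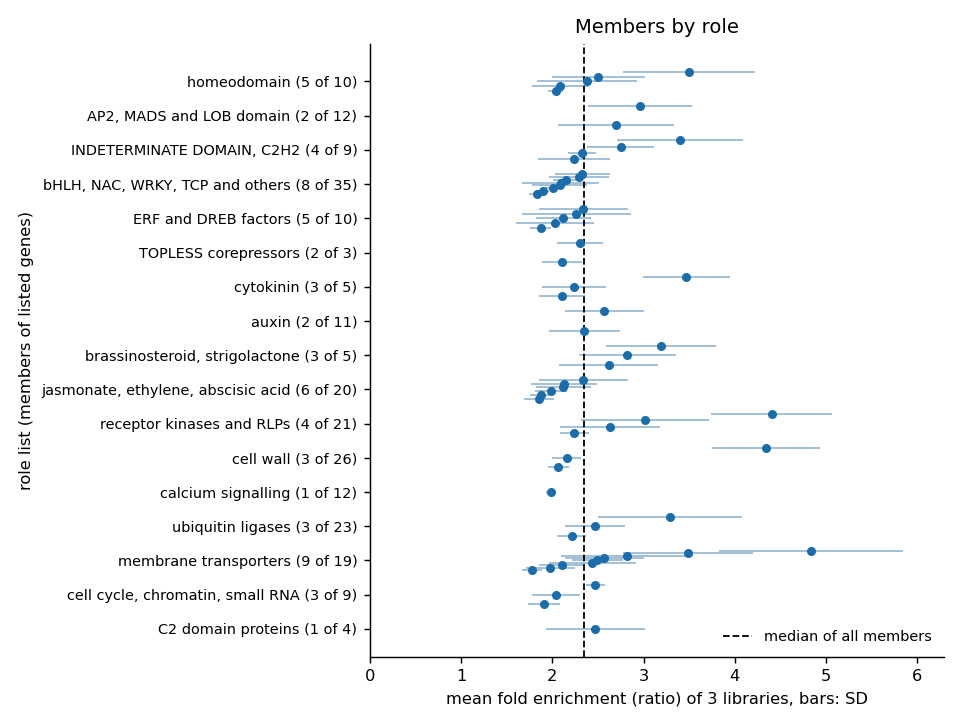
Each point is a member gene placed by its mean over the ATH1-GFP libraries (horizontal axis, fold enrichment as a ratio, with the SD as a bar) in the row of its role list, with the number of members and of listed genes in brackets. A dashed line marks the median of all members, 2.34. All 6 points of the jasmonate, ethylene and abscisic acid row lie below it, with *ERF5* almost on the line.

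The 42 members outside the 25 highest, the 5 lowest and the role lists had means between 1.89 and 2.95, with a median of 2.26. Of all 116 members, 114 were found in the RefSeq table, where 111 are protein-coding and 3 are genes for other RNAs. By chromosome, 31 members were on chromosome 1, 20 each on chromosomes 2 and 3, 11 on chromosome 4 and 34 on chromosome 5, out of 168, 91, 122, 94 and 154 listed genes. In the gene order of RefSeq, 105 members had no listed gene as the entry directly before or after them, and 9 had 1. Listed genes farther off were not counted, and the rule itself favors genes without a listed neighbor. Another free region lay near some members, and 17 member regions had one within 5000 nt. The regions of AT1G69430 and *AGO7*, which are neighboring genes, lay 1063 nt apart with means of 3.16 ± 0.457 and 2.47 ± 0.107. Those of *CYP5*, a cyclophilin gene, and AT2G29970 (*SMXL7*) lay 1737 nt apart and had means of 2.95 ± 0.475 and 2.82 ± 0.532. In such pairs the assignment to 1 gene rests on the listed windows alone. *CYP5* and AT2G29970 were not adjacent entries in RefSeq, and neither counted above as having a listed neighbor. *CYP5* is named here because of the nearby region of AT2G29970, after its values were seen.

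The libraries ordered the members alike but not on the same scale. Over the 116 members, Spearman's rho between libraries was 0.80 for replicates 1 and 2, 0.80 for replicates 1 and 3 and 0.74 for replicates 2 and 3, where all points share the same 3 libraries and genome positions. Of the 10 highest members in each library, 9 were common to all 3 libraries. Replicate 3 was nevertheless the lowest library in 108 members and the highest in none, whereas replicate 1 was the highest in 86. Replicate 3 was also lowest in 90.2% of regions under several listed windows, 73.5% of those under none and 86.1% of those over wild-type peaks. Its low place was thus not particular to the members. The ratio of replicate 1 to replicate 3 had a median of 1.32 (range 0.98 to 1.76), and was 1.51 in the 29 highest members and 1.18 in the 29 lowest. The deepest library was replicate 3, with a genome-wide background of 51.9 tags, against 34.8 and 34.0 in replicates 1 and 2. The part of depth or of the precipitation in this difference was not tested. The median SD of a member was 0.376, or 15.6% of its mean. This SD includes the shift in scale between libraries that most members share. Overlap of values across libraries, as given above, therefore does not compare genes within a library. Differences between members with close means were not tested.

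**Figure D3:**
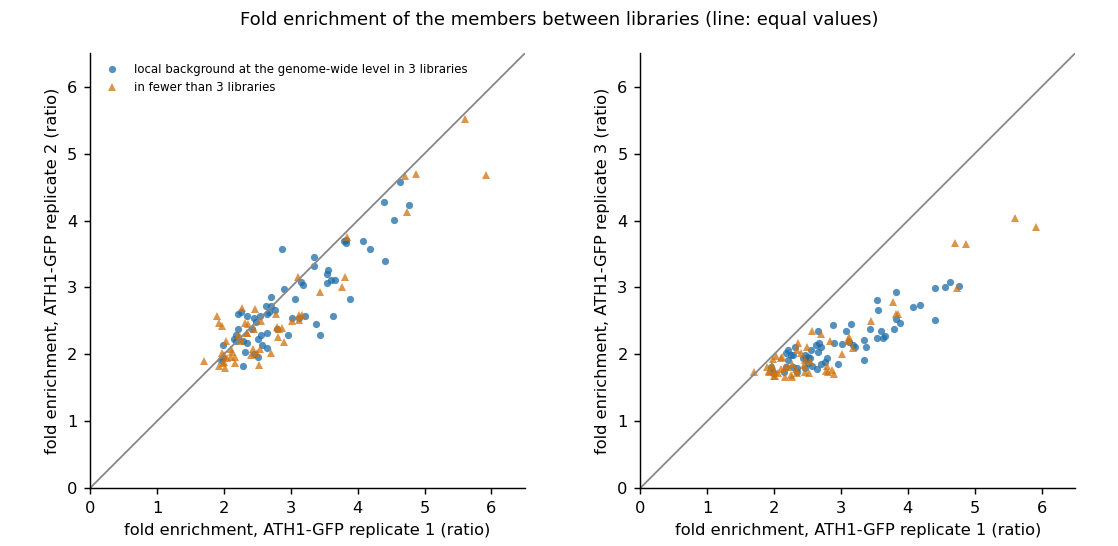
Each point is 1 of the 116 members, with its fold enrichment (ratio) in ATH1-GFP replicate 1 on the horizontal axes and in replicate 2 (left) or replicate 3 (right) on the vertical axes, and the line marks equal values. Against replicate 2, 30 points lie above the line and 86 below it, and against replicate 3 nearly all lie below it and farther from it at the high end, with the ratio of replicate 1 to replicate 3 at 1.51 in the 29 highest members.

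Fold enrichment depends on the background of each place as well as on the tags. In 62 members the local background that MACS used was at the genome-wide level (within 1%) in all 3 libraries, and in 36 it was above that level in all 3. The median of the mean fold was 2.18 in these 36 members, against 2.49 in the 62. *APT3* had 220, 214 and 213 tags at its summits, and across members the tags ranged from 68 to 230 in replicate 1, 63 to 214 in replicate 2 and 90 to 224 in replicate 3. When members were ranked by tags scaled for depth in place of fold enrichment, 21 of the 25 highest were the same genes.

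Member regions were short and their summits mostly coincided. Their length had a median of 347 nt and ranged from 9 to 1028 nt, with 5 regions under 100 nt and 12 over 500 nt. The 3 summits all lay in the region in 91 of the 119 regions, 2 did so in 14, 1 in 5 and none in 9. The span of the summits had a median of 76 nt, and was at most 50 nt in 44 regions and over 300 nt in 21. The regions with the narrow span had a median mean fold of 2.93, against 2.07 in those with the wide span, in which no mean exceeded 2.47. The widest span, 2198 nt, belonged to *WRKY33*. Without the regions whose summits lay outside, in 91 members, the median fold was 2.49.

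**Figure D4:**
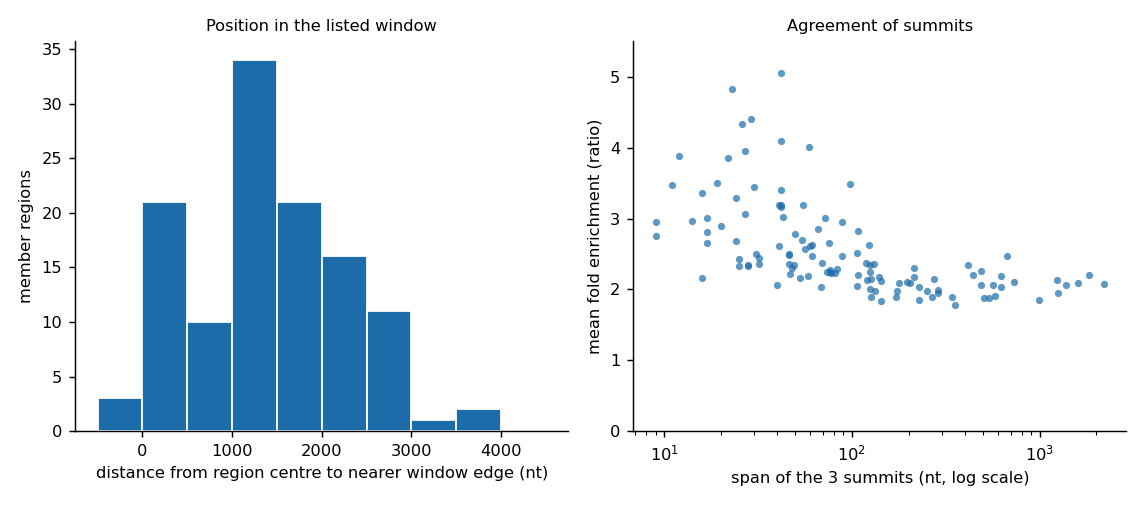
On the left, the 119 member regions are counted by the distance from the region center to the nearer edge of the listed window (nt), and on the right each region is placed by the span of its 3 summits (nt, log scale) and its mean fold enrichment (ratio). Regions with a span above 300 nt all have means below 2.5, and 3 regions are centered outside their window.

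Within the listed windows, 68 of the 119 regions (57.1%) were centered within 1500 nt of an edge. Windows differed in length, and 35 of the 116 were under 4500 nt. In windows of at least 4500 nt, 39 of 82 regions (47.6%) were centered within 1500 nt of an edge, where 49.0% of the window length lies, 40 were between 1500 and 3000 nt from it and 3 were farther in. The windows of members had a median length of 5394 nt, against 4636 nt over all listed genes. Whether a region lay in a promoter, an exon, an intron or an untranslated region was not analysed here, since no annotation on the build of the peaks was at hand.

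Member regions had slightly higher medians than regions shared between listed windows. The median fold of the 119 member regions was 2.62, 2.47 and 1.98, against 2.49, 2.40 and 1.95 in the 153 shared regions, a difference in the mean over libraries of 0.0801. The member regions had the higher median in each of the 3 libraries, and the SD of the difference over the libraries was 0.0484. The difference was -0.00825 when the center of a region decided its window. Of the member regions, 24 (20.2%) had a mean above 3, against 23 (15.0%) of the shared ones, although the highest mean was 5.06 in members and 6.65 in shared regions. The 14 regions of genes set aside by name had a median of 2.88 and the 34 regions in no listed window one of 2.02. The authors required −log10 q above 3 for listed targets, a limit on these same peaks. Regions in no listed window need not meet it, so their lower median is partly a matter of selection.

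**Figure D5:**
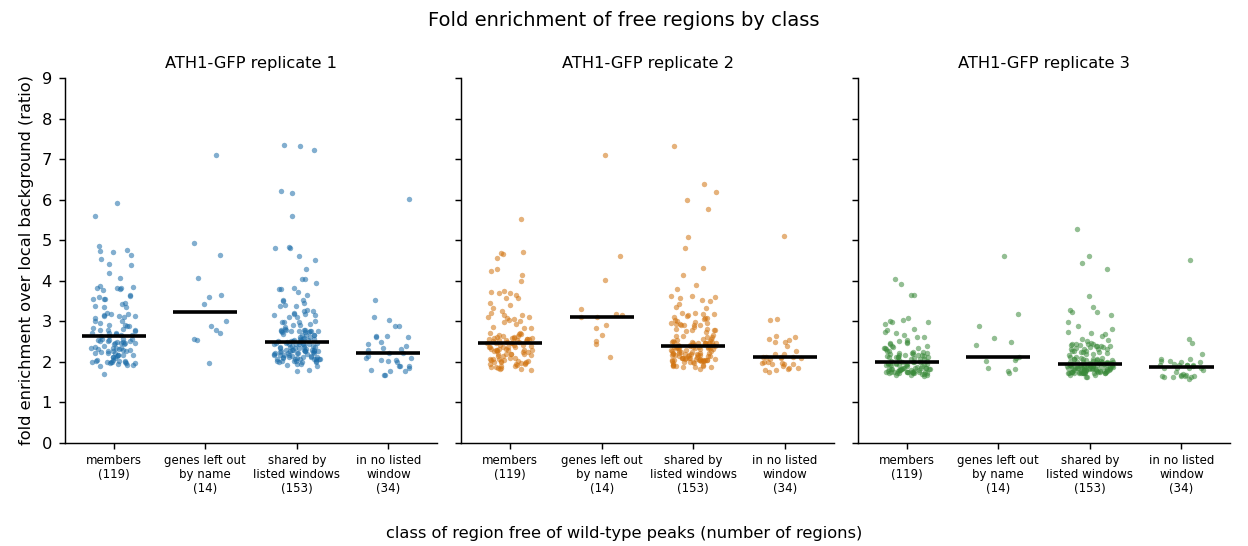
For each ATH1-GFP library (panels), every point is a region free of wild-type peaks, placed by its class (horizontal axis, number of regions in brackets) and its fold enrichment over local background (vertical axis, ratio), and black bars are medians. The median of members is 2.62, 2.47 and 1.98 in replicates 1, 2 and 3, above that of shared regions in each panel.

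Member regions touch no wild-type peak by the rule, so some distance to such peaks is built in. The distance from a member region to the nearest wild-type peak had a median of 56905 nt, and 103 members had no wild-type peak anywhere in their window. Distances for other regions or for random positions were not set beside these values. In 8 members 1 wild-type library had a peak elsewhere in the window and in 5 members 2 libraries did. The 8 regions with a wild-type peak within 1000 nt had a median mean fold of 2.09, against 2.35 in the other 111. The rule divides regions by whether they touch a wild-type peak, and the members nearest to this line were low. *LOX4* lay 39 nt from a wild-type peak with a mean of 1.85 ± 0.161, *DIP2* 67 nt away with 2.07 ± 0.324 and AT1G74450 102 nt away with 2.21 ± 0.521. No summit lay in the region of *LOX4* or in that of AT1G74450, whose summits spanned 1838 nt. The means of these members thus come from summits outside their regions, except in part for *DIP2*. On the other side of the line, the regions of *ERD10* (5 nt long, mean 1.85) and *RAP2.4* (57 nt long, mean 1.64) were left out. Both were short and lay wholly under a wild-type peak. That of *LOX3*, with a mean of 1.96, was left out for an overlap of 66 nt with part of the region.

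Of the members near the other limits of the rule, *ERF104* rested on a region of 9 nt, with values of 1.99, 1.88 and 1.75, and *AGP20* on one of 22 nt. None of the 3 summits of *ERF104* and *AGP20* lay in these stretches. The lowest −log10 q of any member in any library was 3.22, in *mSFC1* and AT5G66770, and 14 members had a library under 4. This lower limit comes from the target list, for which the authors required −log10 q above 3. Over all members, the lowest −log10 q of the 3 libraries had a median of 6.79 and reached 58.6 in *APT3*. The region of AT4G08949 (mean 2.05) lay 20 nt from another listed window, that of *HB25* (2.50) 48 nt and that of AT1G69430 (3.16) 74 nt, whereas the region of *TL29*, with a mean of 2.27, reached 8 nt into the window of *GRF1* and was therefore not counted. The lowest members were *ERF104* (1.87 ± 0.117), *LOX4*, AT3G49710 (a pentatricopeptide repeat gene, 1.85 ± 0.144), AT5G66770 (1.83 ± 0.0853) and *PEN3*, and they overlapped with each other in their libraries.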

How the data were processed

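Immunoprecipitated DNA from 3 ATH1-GFP and 3 wild-type replicates was sequenced by the authors as single-end reads, mapped to TAIR10 with Bowtie2 (version not given in the sources used here), and peaks were called by them in each library with MACS 2.0.10.20130915. Per the file headers, MACS ran without a control library, with an extension of tags to 300 nt, duplicates limited to 1 tag at a position, a genome size of 90000000 and 0.05 as the limit on q. Fold enrichment in the deposited peak tables is a ratio of summit tags to the background around them. The −log10 q values in the deposited tables come from MACS and the same background. The pileup deposited by the authors is a signal that counts the extended tags at the summit, with no scaling for depth. A second deposited peak format held the same peaks (5483 of 5483) and was not used further.

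The table of 629 targets deposited by the authors gives windows on TAIR10 (per its header reaching 3000 nt before and 1500 nt past the coding sequence, −log10 q above 3, overlap of at least 50 nt). Its averaged fold enrichment and count of overlapping peaks were not used.

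Shared regions (at least 1 nt) were computed from all deposited peaks with Python 3.11.15, numpy 2.4.6, pandas 2.3.3 and scipy 1.17.1, checked with bedtools 2.31.1, and tested on simulated data. A region takes the highest fold enrichment of the peaks over it in each library, and a gene takes its strongest own region. The summit of such a peak can lie outside the region, and the value then belongs to that summit. Genes named are the 25 highest and 5 lowest members, those nearest to each limit of the rule, and all members of 18 role lists. Members and lists were chosen with earlier results of these data known. Symbols and neighbors came from a RefSeq table of another assembly (TAIR10.1), whose coordinates were not used. No sequence was at hand, so none is printed. Depth per library is given with the results and limits which weak sites could be called. The alternatives are given in the closing section.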

Additional observations from a re-analysis of the deposited data

How the results depend on the processing

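The number of members, 116, changed by more than 1.5 times only without the exclusion of wild-type peaks, which gave 182 members with all 116 among them. Leaving out 1 ATH1-GFP library gave between 116 and 129 members, of which 111 to 115 were the same genes, and leaving out 1 wild-type library gave 116 to 141, with the highest number without wild type replicate 2. Wild type replicate 1, which kept 19.9% of its tags after removal of duplicates, changed no member when left out. Without wild type replicate 2, 25 genes were added, and without wild type replicate 3, 4 were. A false-discovery rate below 0.001 gave the same 116 genes and one below 0.0001 gave 103, of which 102 were the same. The authors had already required a rate below 0.001 for their target list, so the first of these settings does not test the choice of members. Assignment by the center of a region gave 144. The median mean fold (2.34) ran between 2.21 and 2.46 without 1 ATH1-GFP library, between 2.33 and 2.34 without 1 wild-type library and between 2.28 and 2.49 under the other alternatives. The share of regions within 1500 nt of a window edge ran between 54.7% and 59.9% over all alternatives. The difference between own and shared regions (0.0801) was 0.00726 without the exclusion of wild-type peaks and -0.00825 with assignment by the center, and 0.0345 to 0.0801 without 1 library; the cause was not tested. This set of alternatives for the difference was chosen after seeing the data. Of the 25 highest members, 23 to 24 were the same genes without 1 ATH1-GFP library. No paired analysis was possible because the results come from no test and the wild-type libraries have no peak, hence no value, at the member regions. Motif alternatives were not run, since no sequence was at hand. Precision is limited by 3 libraries per group, and a weak site may be missed at this depth.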

Other observations

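Members outside the role lists, chosen here after their values were seen, included genes of phosphate and inositol metabolism. *IPS1*, a gene induced by phosphate starvation, had 3.35, 3.32 and 1.91 in ATH1-GFP replicates 1, 2 and 3, with replicate 3 far below the other two, and *MIPS1*, which encodes an inositol phosphate synthase, had 3.13, 2.54 and 2.19. *TKI1*, which encodes an interactor of the TOUSLED kinase, had 3.18, 3.03 and 2.13 and *MAKR6*, a membrane-associated kinase regulator, had 2.90, 2.97 and 2.17. *ATE1*, an arginyl-tRNA transferase that marks proteins for degradation, had 2.71, 2.72 and 2.12, and *CYP86A8*, a fatty acid hydroxylase of the cuticle, had 2.32, 2.47 and 1.77. The 2 members annotated as pre-tRNA genes, AT5G02025 and AT5G19095, had 2.81, 2.26 and 1.73, and 2.46, 2.00 and 1.79. In all these genes replicate 3 was the lowest library.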
